A study of Mus musculus with 7 samples.

Results

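The genes described here are the 4 inhibitor of DNA binding genes (Id1, Id2, Id3 and Id4) and 6 genes of bone morphogenetic protein (BMP) signalling: the ligands Bmp2, Bmp4 and Bmp7, the inhibitors Smad6 and Bambi, and the secreted antagonist Grem1. They were chosen by name, with earlier results of these data known, and looked up by Ensembl identifier. All 10 were found among the 47643 gene rows of the deposited table, and all 10 were among the 17132 genes with a value high enough to be tested. They were measured in subcutaneous tumours of C57BL/6 mice, grown from MTO cells whose genotype is sgPrkci/Prkcz, that is, guide RNAs against both genes of atypical protein kinase C. The cells, in 30% Matrigel, went into the right flank of mice aged 7 weeks, and the mice are labelled as 13 weeks old. One group of 4 mice (replicates 11, 12, 19 and 37) received PEGPH20 at 0.0375 mg/kg, beginning on day 15, 2 times a week for 3 weeks. PEGPH20 is a pegylated hyaluronidase, an enzyme that degrades the matrix polysaccharide hyaluronan. The other group of 3 mice (replicates 14, 16 and 33) received vehicle. Each tumour gave 1 library. Both groups carry the same edit, so there are no tumours of unedited cells to compare with, and the sources used here do not say whether the edited cells are a clone or a pool. The hosts are of an inbred strain, and the bulk tumour RNA also holds the RNA of host cells.

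BMPs are secreted dimers of the TGF-beta superfamily. They bring together type I and type II receptor kinases, which phosphorylate SMAD1, SMAD5 and SMAD9. These join SMAD4 in the nucleus and switch on targets, among them the Id genes and the feedback inhibitor Smad6. ID proteins have a helix-loop-helix but no DNA-binding region, so they hold the E proteins, their basic helix-loop-helix partners, away from DNA. In the intestine BMP signals are associated with differentiation of the epithelium, and antagonists such as gremlin 1, made by stromal cells, limit them near the crypt base.

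The values are normalised read counts: reads from the 3′ end of transcripts, divided by 1 size factor per library. The recovered depth was 4582238 to 6703775 reads in the PEGPH20 libraries and 4204388 to 4304108 reads in the vehicle libraries, and mitochondrial transcripts took 10.97% to 12.28% of the reads. No gene of the 17132 passed an adjusted p of 0.05 in limma, the test used here, and none of 13079 did in edgeR's quasi-likelihood test on the recovered reads. DESeq2 called 64 of the 10229 genes it gave an adjusted p (0.626%). An unadjusted p under 0.05 was found for 1704 of 13079 genes (13%) in edgeR. In DESeq2 such a p was found for 1488 of 24439 genes (6.09%), a larger set from which genes with low values were not removed. In limma such a p was found for 2083 of 17132 genes (12.2%), 1298 of them higher and 785 lower in PEGPH20. These 3 shares are over unlike sets of genes. The share that was higher depended on the scaling: 62.3% as deposited, 50.5% with DESeq2 size factors and 72.3% with library totals. The values of 1913 genes (11.2%) did not overlap between the groups, 1151 of them higher in PEGPH20 (6.72%) and 762 lower (4.45%). All 10 epithelial marker genes were detected, with sums of 15615 to 18072 in PEGPH20 tumours and 16840 to 20092 in vehicle tumours. Their fitted means were higher in PEGPH20 for 5 and lower for 5, and 4 had an unadjusted p under 0.05: Cldn7 (log2 difference 0.62), Lgals4 (1.92) and Cdx2 (1.08) were higher and Epcam (-0.37) was lower. The intestinal factor Cdx2 had low values, at 6.08 to 16 in PEGPH20 tumours and 2.60 to 9.19 in vehicle tumours. The sum of 10 skeletal muscle genes was 1817, 13.1, 16 and 546 in PEGPH20 replicates 11, 12, 19 and 37, and 73.2, 8759 and 412 in vehicle replicates 14, 16 and 33. The 3 libraries with the most muscle RNA (PEGPH20 replicates 11 and 37 and vehicle replicate 16) are called muscle-rich here, although vehicle replicate 33 came close to PEGPH20 replicate 37. Macrophage genes summed to 1682 to 2312 in PEGPH20 and 1453 to 3104 in vehicle, lymphocyte genes to 22.1 to 58.8 in PEGPH20 and 17.4 to 54.2 in vehicle, and adipocyte genes to 52.5 to 156 in PEGPH20 and 81.1 to 147 in vehicle, with Lep at 0 in every library. The adipocyte sum is mostly Fabp4, the 1 tested member of 4 with a lower fitted mean in PEGPH20. The other 3 (Cfd, Retn and Adipoq) had higher ones, 2 of them with an unadjusted p under 0.05, and the median log2 difference of the 4 was 1.28.

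No listed gene passed the adjusted threshold. Id1 had higher values in every PEGPH20 tumour than in any vehicle tumour, and Id3 was higher in 3 of the 4 PEGPH20 tumours than in any vehicle tumour. Those were the 2 listed genes of 10 (20%) with an unadjusted p under 0.05, where the share among all tested genes was 12.2%. For genes higher in PEGPH20 that share was 7.58%. The count was 1 (Id1) without PEGPH20 replicate 11 or without PEGPH20 replicate 19, and 3 (Id1, Id3 and Grem1) without the 3 muscle-rich libraries. Over all tested genes the count of 2083 became 1381, 2165 and 1797 in these settings. Groups without overlap were found for 1 of the 10, Id1, where the share among all genes was 11.2%, and 6.72% for genes higher in PEGPH20. In all, 6 listed genes had a higher fitted mean in PEGPH20 and 4 a lower one, with a median log2 difference of 0.16, against 0.03 over all tested genes. The median size of the difference, sign aside, was 0.36 for the listed genes and 0.21 for all tested genes.

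Promoters of 6 of the 10 genes (Id2, Id3, Id4, Bmp4, Smad6 and Grem1) were found in the RefSeq promoter table, build GRCm38.p6, as 250 bases before to 50 bases after the start. They were searched on both strands for 2 palindromes: GGCGCC, a GC-rich motif bound by SMAD1 and SMAD5, and GTCTAGAC, the SMAD-binding palindrome. Across all 32851 promoters of that length, 11.9% held GGCGCC and 0.213% held GTCTAGAC. The windows of the listed genes were 60% (Id3) to 73.3% (Id4) G or C. The shares were not matched for base composition, so no enrichment can be read from them. GGCGCC was present in the windows of Id2, Id4 and Grem1, beginning 231, 148 and 78 bases before the start, and GTCTAGAC was present in that of Smad6, beginning 4 bases before the start. The windows of Id3 and Bmp4 held neither, and no window held both. Of the sequences below, those of Id2, Smad6 and Grem1 hold a motif and that of Id3 holds neither. In limma Id3 had an unadjusted p under 0.05, and Id2, Smad6 and Grem1 did not. The values of all 4 genes overlapped between the groups. The windows are chr12:25096043-25096342 on the minus strand for Id2, chr4:136143572-136143871 on the plus strand for Id3, chr9:64022010-64022309 on the minus strand for Smad6 and chr2:113758599-113758898 on the minus strand for Grem1. The windows of Id2 and Id3 lie inside the GENCODE spans given for these genes below, because the RefSeq and GENCODE starts differ. Each window is written 5′ to 3′ along the gene, with the motif in capitals.
Id2: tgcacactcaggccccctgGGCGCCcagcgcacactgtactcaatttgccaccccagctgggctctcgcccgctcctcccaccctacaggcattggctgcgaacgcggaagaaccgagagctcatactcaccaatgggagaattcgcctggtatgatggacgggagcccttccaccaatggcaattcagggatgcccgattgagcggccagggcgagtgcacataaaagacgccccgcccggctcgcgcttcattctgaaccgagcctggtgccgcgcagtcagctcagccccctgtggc
Id3: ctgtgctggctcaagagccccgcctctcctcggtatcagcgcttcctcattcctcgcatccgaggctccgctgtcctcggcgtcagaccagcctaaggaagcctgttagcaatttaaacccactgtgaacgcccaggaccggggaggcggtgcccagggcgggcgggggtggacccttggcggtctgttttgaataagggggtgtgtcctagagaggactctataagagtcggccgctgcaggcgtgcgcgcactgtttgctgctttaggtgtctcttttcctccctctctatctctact
Smad6: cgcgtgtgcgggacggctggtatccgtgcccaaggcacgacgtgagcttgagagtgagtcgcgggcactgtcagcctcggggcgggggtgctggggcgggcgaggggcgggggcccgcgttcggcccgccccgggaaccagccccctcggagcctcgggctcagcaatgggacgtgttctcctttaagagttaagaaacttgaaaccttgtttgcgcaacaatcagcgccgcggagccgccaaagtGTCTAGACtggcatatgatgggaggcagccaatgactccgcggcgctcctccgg
Grem1: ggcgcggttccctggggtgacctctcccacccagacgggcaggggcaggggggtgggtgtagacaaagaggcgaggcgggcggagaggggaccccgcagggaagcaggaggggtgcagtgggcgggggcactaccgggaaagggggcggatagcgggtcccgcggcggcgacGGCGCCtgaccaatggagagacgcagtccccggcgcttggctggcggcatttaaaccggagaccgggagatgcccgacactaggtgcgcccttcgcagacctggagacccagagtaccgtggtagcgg

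Among the ligands, none of the listed genes passed the adjusted threshold, and each of the 3 had overlapping groups. Bmp4 (ENSMUSG00000021835, GRCm38 chromosome 14, 46383520 to 46390669, minus strand) encodes a ligand that stromal cells of the gut make. Its normalised read counts were 227, 156, 256 and 256 in PEGPH20 replicates 11, 12, 19 and 37, against 235, 86.4 and 166 in vehicle replicates 14, 16 and 33. The lowest value was that of vehicle replicate 16, the library with the most muscle RNA, and vehicle replicate 14 lay within the PEGPH20 range. Bmp4 averaged 224 ± 47.1 in PEGPH20 and 162 ± 74.5 in vehicle tumours (SD, n = 4 and n = 3), a log2 difference of 0.55 ± 0.31 (SE, limma on log2(value + 1), adjusted p = 0.495). The difference rests on vehicle replicate 16: it was 0.15 without that library and 0.02 without all 3 muscle-rich libraries, and it was 0.87 without vehicle replicate 14. An exon of Gm15217 overlaps Bmp4 on the other strand. The sources used here do not say whether the authors counted by strand, so reads of such pairs cannot be told apart, and this holds for every opposite-strand overlap named here.

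Bmp2 (ENSMUSG00000027358, chromosome 2, 133552159 to 133562885, plus strand) encodes the ligand closest to BMP4. It had 167, 196, 161 and 104 normalised reads in the PEGPH20 libraries and 258, 152 and 151 in the vehicle libraries. Vehicle replicate 14 was the highest of the 7, and the other vehicle libraries lay inside the PEGPH20 range. The means were 157 ± 38.4 in PEGPH20 and 187 ± 61.6 in vehicle (SD, n = 4 and n = 3; log2 difference -0.24 ± 0.24 SE, limma adjusted p = 0.71). Without vehicle replicate 14 the log2 difference was 0.02.

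Bmp7 (ENSMUSG00000008999, chromosome 2, 172868012 to 172940321, minus strand), a ligand known from kidney and skeletal development, was close to the limit of detection. It had 8, 4, 29 and 11 reads in the PEGPH20 libraries and 3, 0 and 9 reads in the vehicle libraries. As normalised read counts these were 6.63, 2.76, 16 and 8.03 in PEGPH20 and 2.62, 0 and 7.81 in vehicle. A count of 0 allows up to 3 reads, which is 2.76 on the normalised scale in vehicle replicate 16, and this limit covers counting error only. The groups overlapped, and the log2 difference of 1.36 ± 0.74 (SE, limma adjusted p = 0.481) was 0.53 without vehicle replicate 16, and 0.50 with all 3 muscle-rich libraries left out. It was 2.10 without vehicle replicate 33, 2.46 with a pseudocount of 0.1 and 2.48 with the pan-fibroblast level as a covariate. The first and the last of these 3 had an unadjusted p under 0.05.

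**Figure D1:**
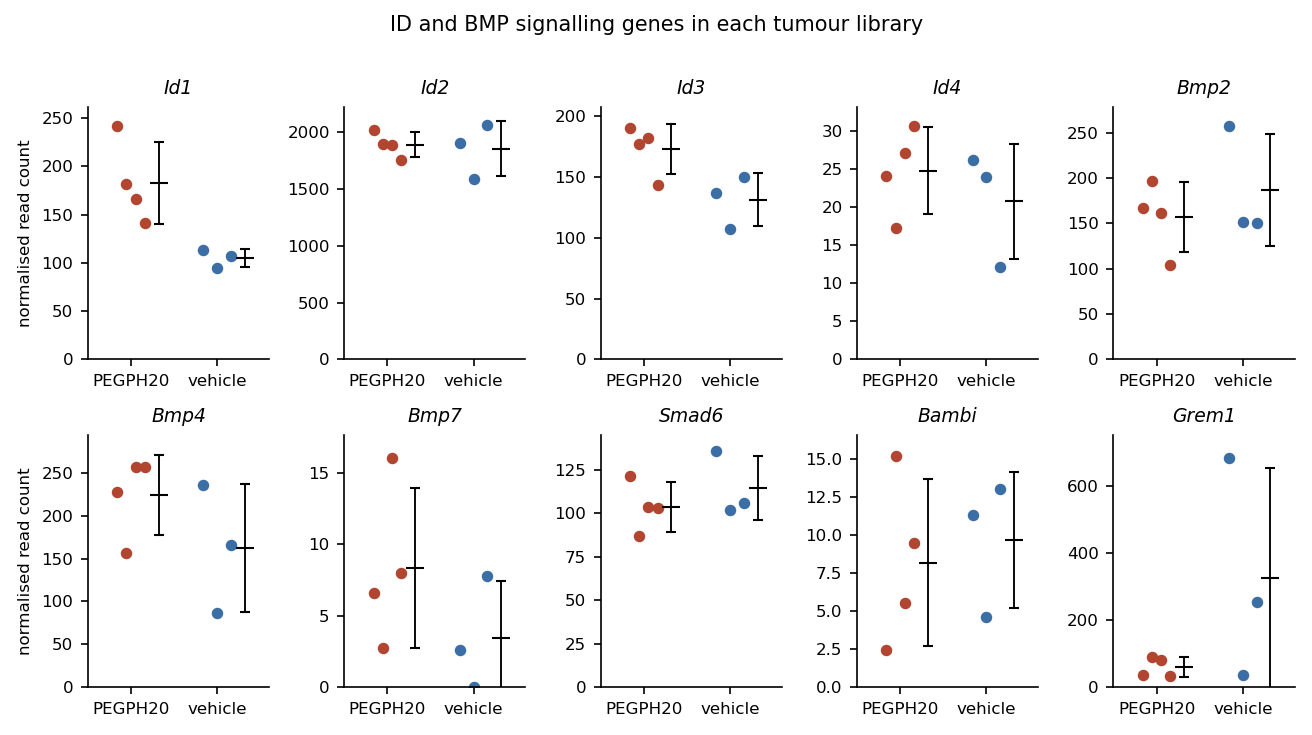
Normalised read count (y axis, each panel from 0) of the 10 listed genes in the PEGPH20 libraries (left in each panel, n = 4) and the vehicle libraries (right, n = 3). Points are libraries and the black bars are means ± SD, cut at 0 where the SD reaches below it. The groups are apart for Id1, where PEGPH20 values are 142 to 242 and vehicle values 94.7 to 113, and they overlap for the other 9 genes.

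The pathway list held 10 further ligands, of which Bmp3, Bmp5, Bmp8a and Bmp8b had a mean value of at least 1. The others (Bmp6, Bmp10, Gdf2, Gdf5, Gdf6 and Gdf7) had 0 to 7 reads over all 7 libraries together. Bmp8b was the only one of the 4 with an unadjusted p under 0.05, which 12.2% of all tested genes had. Its values were 24.9, 28.9, 34.2 and 27.0 in the PEGPH20 libraries, against 16.6, 0.919 and 7.81 in the vehicle libraries. The groups did not overlap, with means of 28.8 ± 4.02 in PEGPH20 and 8.43 ± 7.84 in vehicle (SD, n = 4 and n = 3). Its log2 difference was 2.15 ± 0.62 (SE, limma adjusted p = 0.313), and it was 1.25 without vehicle replicate 16, which had 1 read, and 1.38 with the 3 muscle-rich libraries left out. BMP8B is a ligand known from germ cell and brown fat biology in mice. Its near-identical neighbour Bmp8a averaged 4.20 ± 1.26 in PEGPH20 and 2.62 ± 1.71 in vehicle, and reads of the pair may be split unequally between them. Exons of Ppie and Gm17244 overlap Bmp8b on the other strand.

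Of the receptors and co-receptors, 10 of 10 listed in the pathway set were tested, 3 with a higher and 7 with a lower fitted mean in PEGPH20. With library totals as the scaling, the split was 4 and 6. Of all tested genes, 54% had a higher fitted mean as deposited. The gene with the smallest p of all listed and pathway genes was Rgma, which encodes a membrane-anchored co-receptor that binds BMP2 and BMP4. It had 0.83, 2.07, 6.08 and 2.92 normalised reads in the PEGPH20 libraries, against 13.9, 15.6 and 25.2 in the vehicle libraries. These are 1, 3, 11 and 4 reads in PEGPH20 and 16, 17 and 29 reads in vehicle. Every PEGPH20 library was below every vehicle library, and the means were 2.97 ± 2.24 in PEGPH20 and 18.2 ± 6.05 in vehicle (SD, n = 4 and n = 3). Rgma had a log2 difference of -2.40 ± 0.47 (SE, 95% confidence interval -3.45 to -1.35, limma adjusted p = 0.275), rank 28 of the tested genes. Across the 18 alternatives that kept Rgma, it lay between -2.84 and -1.61, with an unadjusted p under 0.05 in each. The antisense gene A730056A06Rik overlaps an exon of Rgma.

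Acvr2a, a type II receptor shared by activins and BMPs, had 124, 123, 123 and 138 in the PEGPH20 libraries, against 112, 106 and 104 in the vehicle libraries. The groups did not overlap, although the difference was small: 127 ± 7.16 in PEGPH20 and 107 ± 3.94 in vehicle (SD, n = 4 and n = 3; log2 difference 0.24 ± 0.11 SE, limma adjusted p = 0.406). Its unadjusted p was under 0.05 in 4 of the 19 alternatives, and was not in edgeR, in DESeq2, with either covariate or without the 3 muscle-rich libraries. An exon of Orc4 overlaps it on the other strand. Bmpr2, the BMP type II receptor, had means of 743 ± 106 in PEGPH20 and 893 ± 192 in vehicle (log2 difference -0.25 ± 0.16 SE, limma adjusted p = 0.537). The type I receptor Bmpr1a averaged 359 ± 15.1 in PEGPH20 and 326 ± 33.2 in vehicle.

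Bambi (ENSMUSG00000024232, chromosome 18, 3507923 to 3516404, plus strand) encodes a pseudoreceptor that has no kinase domain and dampens BMP and TGF-beta signals. It had 3, 22, 10 and 13 reads in the PEGPH20 libraries and 13, 5 and 15 in the vehicle libraries. The normalised read counts, 2.49, 15.2, 5.52 and 9.48 in PEGPH20 and 11.3, 4.60 and 13.0 in vehicle, overlapped over most of their range. The means were 8.16 ± 5.47 in PEGPH20 and 9.65 ± 4.46 in vehicle (SD, n = 4 and n = 3; log2 difference -0.33 ± 0.55 SE, 95% confidence interval -1.55 to 0.90, limma adjusted p = 0.835).

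Grem1 (ENSMUSG00000074934, chromosome 2, 113746164 to 113758646, minus strand) encodes gremlin 1, which binds BMP2, BMP4 and BMP7 and keeps them from their receptors. Its values were 36.5, 90.9, 82.9 and 32.8 in the PEGPH20 libraries, against 684, 36.8 and 254 in the vehicle libraries. Vehicle replicates 14 and 33 were above all PEGPH20 libraries, and vehicle replicate 16 lay inside the PEGPH20 range, so the groups overlapped. The means were 60.8 ± 30.4 in PEGPH20 and 325 ± 330 in vehicle, where the SD exceeds the mean (SD, n = 4 and n = 3). Grem1 had a log2 difference of -1.75 ± 0.82 (SE, 95% confidence interval -3.59 to 0.09), and it did not pass the test (limma adjusted p = 0.431). On the recovered reads, edgeR's quasi-likelihood test gave -2.46 (unadjusted p under 0.05, adjusted p = 0.298) and DESeq2 gave -2.49 (adjusted p = 0.214). The difference depended on single vehicle libraries: it was -0.81 without replicate 14 and -2.90 without replicate 16 (limma adjusted p = 0.0743). Without the 3 muscle-rich libraries, a choice made after seeing the data, it was -2.25. Those 3 libraries, which come from both groups, held the 3 lowest Grem1 values (36.5, 32.8 and 36.8). The part of muscle content in the Grem1 values was not tested.

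Fibroblast and endothelial transcripts were also lower in several PEGPH20 libraries. The sum of 10 pan-fibroblast genes was 8307, 18957, 21560 and 10716 in the PEGPH20 libraries, against 19113, 17480 and 44661 in the vehicle libraries. All 10 had a lower fitted mean in PEGPH20, 7 with an unadjusted p under 0.05 and none with an adjusted one in limma (Lum passed in DESeq2), and the median log2 difference was -0.86. All 10 fibroblast markers were detected. The sum of 10 endothelial genes, all detected, was 462, 682, 636 and 379 in PEGPH20 and 592, 680 and 759 in vehicle, with a median log2 difference of -0.32. With the pan-fibroblast level as a covariate the log2 difference of Grem1 was -0.44, and with the endothelial level it was -1.14. In bulk tumours, fewer cells of a type and less RNA per cell cannot be told apart, and the part of the cell makeup in the Grem1 values was not tested further.

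**Figure D2:**
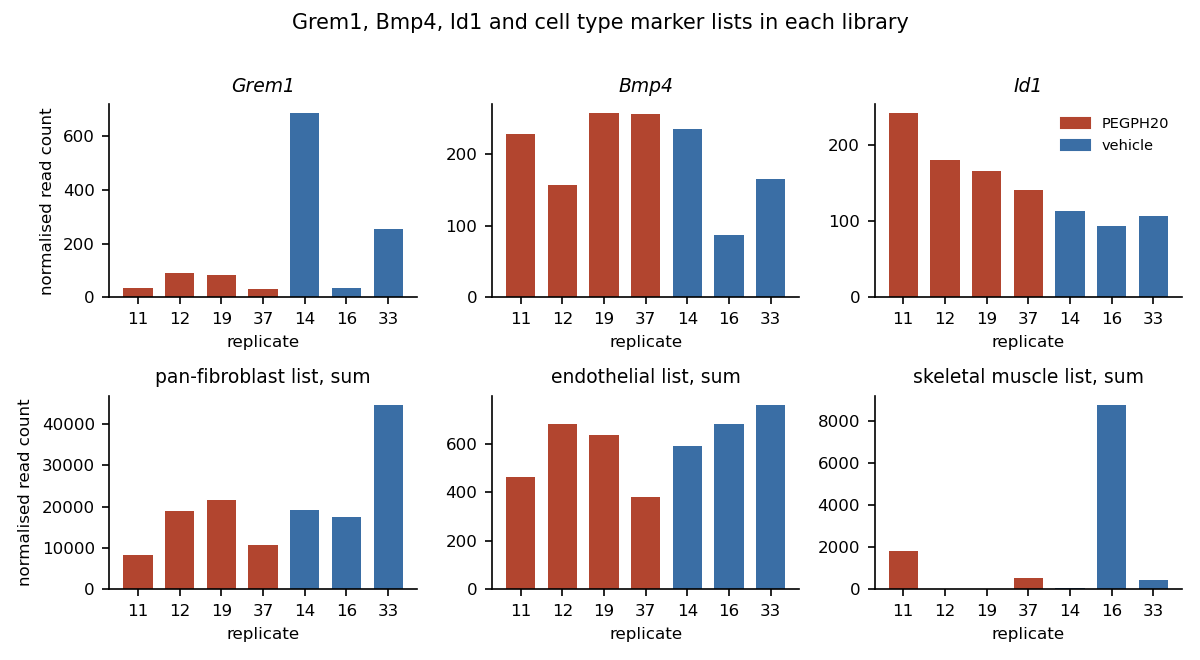
Normalised read count (y axis, from 0) in each library (x axis, replicate number) for Grem1, Bmp4 and Id1, and the summed normalised read counts of 10 pan-fibroblast, 10 endothelial and 10 skeletal muscle genes. Grem1 is highest in vehicle replicate 14 (684), the fibroblast sum in vehicle replicate 33 (44661) and the muscle sum in vehicle replicate 16 (8759), so the 3 vehicle libraries differ from one another in different ways.

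Of 13 other secreted antagonists 10 were tested, 2 with a higher and 8 with a lower fitted mean in PEGPH20. Of these, 1 (Fstl1) had an unadjusted p under 0.05. Among all tested genes 54% had a higher fitted mean and 12.2% had such a p. Fstl1 encodes a follistatin-like glycoprotein made by mesenchymal cells that can bind BMP4. It had 333, 450, 694 and 347 in the PEGPH20 libraries, against 546, 667 and 1248 in the vehicle libraries. PEGPH20 replicate 19 was above 2 of the vehicle libraries, so the groups overlapped. The log2 difference was -0.82 ± 0.31 (SE, limma adjusted p = 0.374). The difference was -0.47 without vehicle replicate 33, the library richest in fibroblast transcripts, and -0.56 without the 3 muscle-rich libraries. It was -0.34 with the endothelial level as a covariate and -0.04 with the pan-fibroblast level. Both levels were themselves lower in PEGPH20, and the part of the cell makeup in the Fstl1 values was not tested further. Noggin (Nog), the classical BMP antagonist, had 0 to 3.31 in the PEGPH20 libraries and 0 to 6.43 in the vehicle libraries. Chrdl2, Sost and Sostdc1 had 4, 0 and 7 reads in all and were not tested.

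None of the 3 signalling SMADs tested had an unadjusted p under 0.05. Smad1 averaged 209 ± 35.5 in PEGPH20 and 226 ± 59.1 in vehicle, Smad5 averaged 440 ± 40.9 in PEGPH20 and 495 ± 32.8 in vehicle, and Smad9 had 2 reads in all 7 libraries. Smad4, the partner shared with the TGF-beta branch, averaged 632 ± 43.1 in PEGPH20 and 568 ± 33.5 in vehicle (log2 difference 0.15 ± 0.09 SE, limma adjusted p = 0.508).

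Smad6 (ENSMUSG00000036867, chromosome 9, 63953076 to 64022059, minus strand) encodes the inhibitory SMAD that acts mainly on the BMP branch and is itself switched on by BMP signals. It had 122, 86.8, 104 and 103 in the PEGPH20 libraries and 136, 102 and 106 in the vehicle libraries. The ranges overlapped over most of their width. The means were 104 ± 14.3 in PEGPH20 and 115 ± 18.6 in vehicle (SD, n = 4 and n = 3; log2 difference -0.14 ± 0.15 SE, 95% confidence interval -0.49 to 0.21, limma adjusted p = 0.735). Its promoter window is the one that holds GTCTAGAC.

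The pathway list held 7 further intracellular inhibitors, all tested, 3 with a higher and 4 with a lower fitted mean in PEGPH20 (2 and 5 with DESeq2 or TMM scaling). Of the 4, 3 had an unadjusted p under 0.05: Ski and Skil, which encode co-repressors that bind SMAD complexes, and Smurf1, which encodes a ubiquitin ligase for SMAD1 and SMAD5. Of all tested genes 54% had a higher fitted mean, 12.2% had such a p, and 4.58% had it with a lower mean. Ski had 293, 328, 350 and 280 in the PEGPH20 libraries, against 395, 387 and 507 in the vehicle libraries. Its groups did not overlap (means 313 ± 32 in PEGPH20 and 430 ± 67.0 in vehicle, SD, n = 4 and n = 3; log2 difference -0.45 ± 0.13 SE, limma adjusted p = 0.313). Smurf1 had 257, 285, 282 and 233 in PEGPH20 and 329, 300 and 342 in vehicle, again without overlap (log2 difference -0.29 ± 0.10 SE, limma adjusted p = 0.355). Skil had 393, 420, 488 and 297 in PEGPH20 and 625, 403 and 626 in vehicle, with vehicle replicate 16 inside the PEGPH20 range (log2 difference -0.46 ± 0.20 SE, limma adjusted p = 0.405). With the pan-fibroblast level as a covariate the log2 differences were -0.18 for Ski, -0.13 for Smurf1 and -0.08 for Skil, and with the endothelial level they were -0.29 for Ski, -0.17 for Smurf1 and -0.21 for Skil. None of these 6 values had an unadjusted p under 0.05. Over all tested genes the count with such a p also fell, from 2083 to 1203 with the pan-fibroblast level and 879 with the endothelial level. The part of the cell makeup in the values of these 3 genes was not tested further. Smad7, the inhibitory SMAD that also acts on the TGF-beta branch, averaged 273 ± 63.8 in PEGPH20 and 367 ± 129 in vehicle (log2 difference -0.39, limma adjusted p = 0.544).

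Id1 (ENSMUSG00000042745, chromosome 2, 152736251 to 152737410, plus strand) encodes an ID protein of progenitor and endothelial cells and is a widely used readout of BMP signalling. It had 242, 181, 166 and 142 normalised reads in PEGPH20 replicates 11, 12, 19 and 37, against 113, 94.7 and 107 in vehicle replicates 14, 16 and 33. The lowest PEGPH20 library was above the highest vehicle library, and the PEGPH20 libraries were spread more widely. The values rest on 1049 reads in PEGPH20 and 356 in vehicle. The means were 183 ± 42.8 in PEGPH20 and 105 ± 9.47 in vehicle (SD, n = 4 and n = 3), a ratio of 1.74. The log2 difference was 0.77 ± 0.17 (SE, 95% confidence interval 0.38 to 1.16, limma adjusted p = 0.275), rank 88 of the 17132 tested genes. It passed no adjusted threshold: edgeR's quasi-likelihood test gave an adjusted p of 0.284, and DESeq2 gave a log2 difference of 0.76 with an adjusted p of 0.0564. In the 19 alternatives the difference lay between 0.63 and 0.88, with an unadjusted p under 0.05 in each and an adjusted p of 0.0564 to 0.906. PEGPH20 replicate 11, highest for Id1, also had the most muscle RNA of its group (sum 1817) and the lowest fibroblast sum (8307). The adipocyte gene Cfd was also highest there, with 53.9, 30.3, 18.2 and 2.92 in the PEGPH20 libraries, against 1.74, 2.76 and 0.868 in the vehicle libraries, without overlap. Adipoq and Retn had higher fitted means in PEGPH20 as well. Fabp4, the adipocyte gene with the highest values, had a lower one. It had 74.6, 113, 76.8 and 48.2 in PEGPH20 and 76.7, 141 and 95.4 in vehicle. The adipocyte sums of the groups overlapped. The part of fat content in the Id1 values was not tested. The difference was 0.65 when the 3 muscle-rich libraries were left out and 0.72 with the pan-fibroblast level as a covariate.

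Id3 (ENSMUSG00000007872, chromosome 4, 136143497 to 136145755, plus strand) encodes a close relative with an overlapping pattern of expression in vessels and progenitor cells. It had 191, 177, 182 and 144 in the PEGPH20 libraries, against 137, 108 and 150 in the vehicle libraries. PEGPH20 replicate 37 was below vehicle replicate 33, and the other PEGPH20 libraries were above all vehicle libraries. The means were 173 ± 20.5 in PEGPH20 and 131.5 ± 21.8 in vehicle (SD, n = 4 and n = 3). Id3 had a log2 difference of 0.40 ± 0.15 (SE, 95% confidence interval 0.07 to 0.73, limma adjusted p = 0.369). It lay between 0.26 and 0.59 in the 19 alternatives, 15 of which gave an unadjusted p under 0.05. The 4 that did not were DESeq2 and the fits without PEGPH20 replicate 11, without PEGPH20 replicate 19 and without vehicle replicate 16. Id1 and Id3 are known to be expressed in endothelial cells, whose 10 markers had lower fitted means in PEGPH20, 2 of them with an unadjusted p under 0.05. With the endothelial level as a covariate the log2 difference was 0.77 for Id1 and 0.51 for Id3. The part of endothelial content in the Id1 and Id3 values was not tested further.

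Id2 (ENSMUSG00000020644, chromosome 12, 25093799 to 25097140, minus strand) encodes an ID protein known from lymphoid and epithelial development. It had 2019, 1894, 1881 and 1752.5 in the PEGPH20 libraries and 1900.4, 1587 and 2062 in the vehicle libraries. The PEGPH20 range lay inside the vehicle range. The log2 difference was 0.03 ± 0.11 (SE, limma adjusted p = 0.919), and its 95% confidence interval of -0.20 to 0.27 leaves out a difference as large as the fitted one of Id1.

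Id4 (ENSMUSG00000021379, chromosome 13, 48261228 to 48266026, plus strand), known from the nervous system and mammary gland, had 24.0, 17.2, 27.1 and 30.6 in the PEGPH20 libraries and 26.2, 23.9 and 12.1 in the vehicle libraries. The groups overlapped, with means of 24.7 ± 5.69 in PEGPH20 and 20.7 ± 7.52 in vehicle (SD, n = 4 and n = 3; log2 difference 0.28 ± 0.31 SE, limma adjusted p = 0.73). Exons of A330033J07Rik and Gm49291 overlap Id4 on the other strand.

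**Figure D3:**
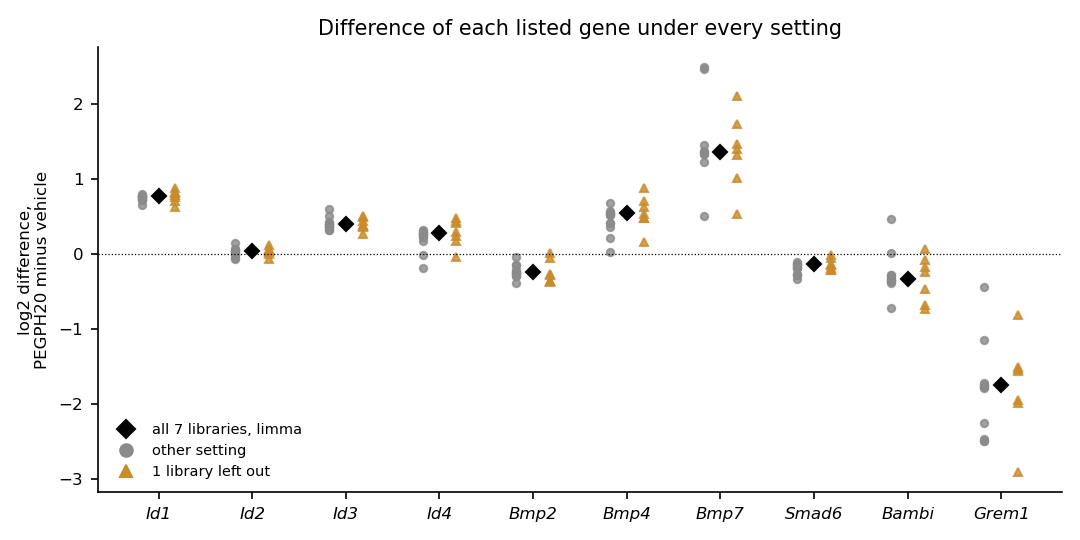
Log2 difference (y axis, PEGPH20 minus vehicle) of each listed gene (x axis) in the limma fit of all 7 libraries (black diamonds), in other settings (grey circles) and with 1 library left out (orange triangles). Id1 stays between 0.63 and 0.88 and Id3 between 0.26 and 0.59, while Grem1 runs between -2.90 and -0.44.

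Among 8 other direct targets of BMP signals 5 were tested, 2 with a higher and 3 with a lower fitted mean in PEGPH20 (3 and 2 with library totals). The 2 with higher means, Msx1 and Atoh8, had an unadjusted p under 0.05. Among all tested genes 54% had a higher fitted mean, and 7.58% had one with such a p. Msx1 encodes a homeobox factor that BMP4 induces in the embryo. It had 45.6, 33.8, 33.7 and 36.5 in the PEGPH20 libraries, against 25.3, 22.1 and 26.9 in the vehicle libraries, without overlap (log2 difference 0.57 ± 0.19 SE, limma adjusted p = 0.347). The unadjusted p of Msx1 was not under 0.05 in DESeq2, with either covariate or without the 3 muscle-rich libraries, where the log2 difference was 0.36. Atoh8 encodes a basic helix-loop-helix factor that is a BMP target in endothelial cells. It had 14, 12, 12 and 6 reads in the PEGPH20 libraries and 1, 6 and 1 reads in the vehicle libraries. As normalised read counts these were 11.6, 8.27, 6.63 and 4.38 in PEGPH20 and 0.872, 5.51 and 0.868 in vehicle. PEGPH20 replicate 37 was below vehicle replicate 16, so the groups overlapped (log2 difference 1.55 ± 0.52 SE, limma adjusted p = 0.35). With the pan-fibroblast level as a covariate the log2 difference of Atoh8 was 0.98, with an unadjusted p over 0.05. Msx2 and Dlx2 had 0 reads in every library, and Hamp had 1 read.

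The E proteins, which ID proteins bind, had lower fitted means in PEGPH20 in all 3 cases. With library totals as the scaling this held for 2 of 3, and Tcf12 was higher. Among all tested genes 54% had a higher fitted mean as deposited. Tcf4 had 1963, 2059, 2254 and 1909 in the PEGPH20 libraries, against 2511, 2194 and 2858 in the vehicle libraries. PEGPH20 replicate 19 was above vehicle replicate 16 (log2 difference -0.30 ± 0.11 SE, limma adjusted p = 0.371). With the pan-fibroblast level as a covariate the log2 difference of Tcf4 was -0.08 and with the endothelial level -0.19, neither with an unadjusted p under 0.05. The part of the cell makeup in the Tcf4 values was not tested further. Tcf3 averaged 148 ± 16.8 in PEGPH20 and 151 ± 19.5 in vehicle. Tcf12 averaged 1049.7 ± 62.0 in PEGPH20 and 1064 ± 70.3 in vehicle, so that these 2 differed by less than the spread between tumours.

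**Figure D4:**
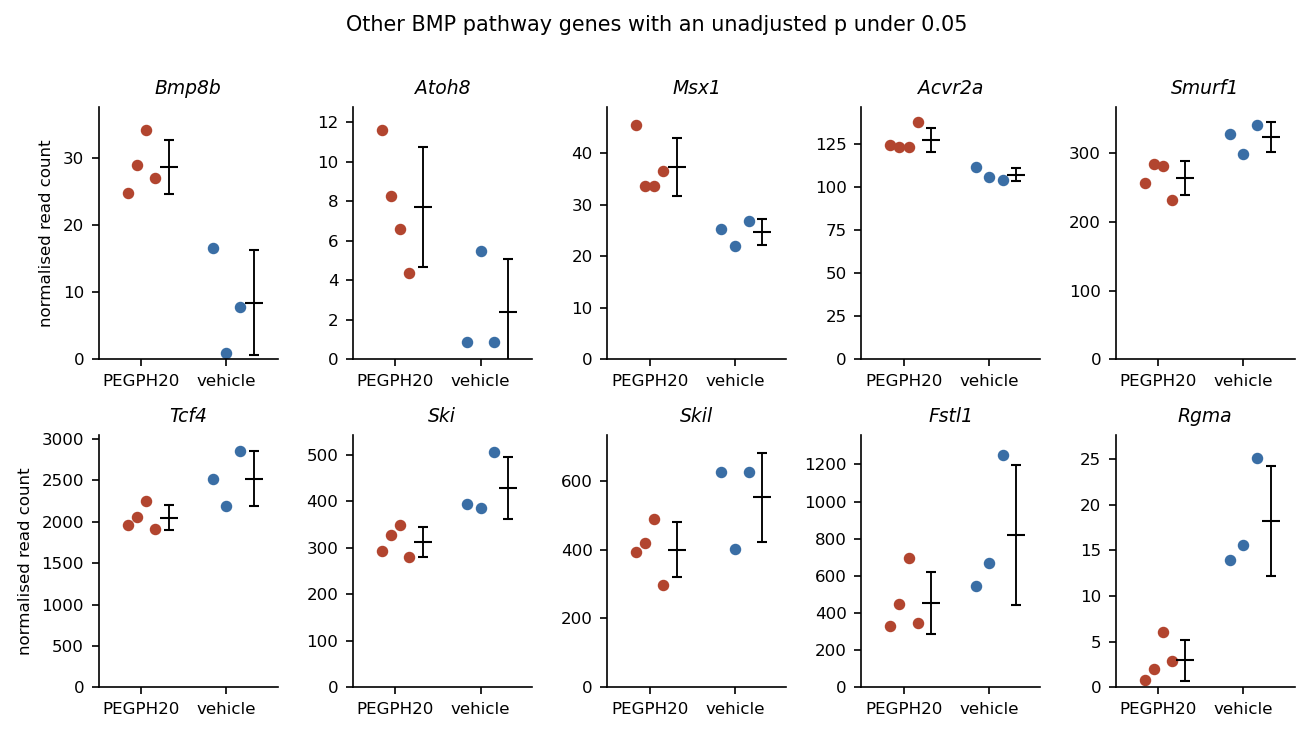
Normalised read count (y axis, each panel from 0) of the 10 other pathway genes with an unadjusted p under 0.05, in PEGPH20 libraries (left in each panel, n = 4) and vehicle libraries (right, n = 3), with means ± SD in black. PEGPH20 values are higher for Bmp8b, Atoh8, Msx1 and Acvr2a and lower for Smurf1, Tcf4, Ski, Skil, Fstl1 and Rgma, and the groups are apart in 6 of the 10.

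Over the whole set of 55 other pathway genes, 42 were tested. Of these, 14 had a higher and 28 a lower fitted mean in PEGPH20 (13 and 29 with DESeq2 scaling, 17 and 25 with library totals), where 54% of all tested genes had a higher one, and their median log2 difference was -0.17, against 0.03 over all tested genes. An unadjusted p under 0.05 was found for 10 (23.8%), 4 higher and 6 lower, where the shares among all tested genes were 12.2%, 7.58% and 4.58%. None passed the adjusted threshold. The pathway list was written with earlier results of these data known, so its shares are not an independent comparison with those of all genes. The groups did not overlap for 6 (Bmp8b, Acvr2a, Rgma, Smurf1, Ski and Msx1), 3 higher and 3 lower, where the shares among all genes were 11.2%, 6.72% and 4.45%. The count of 10 was 5 with the pan-fibroblast level as a covariate, 3 with the endothelial level, 4 without vehicle replicate 33, 6 without vehicle replicate 14 and 15 without vehicle replicate 16. Without the 3 muscle-rich libraries it was 9. The count over all tested genes, 2083, moved as well. It was 1203 with the pan-fibroblast level, 879 with the endothelial level and 1321 without vehicle replicate 33. Without vehicle replicate 14 it was 1658, without vehicle replicate 16 it was 3456, and without the 3 muscle-rich libraries it was 1797.

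**Figure D5:**
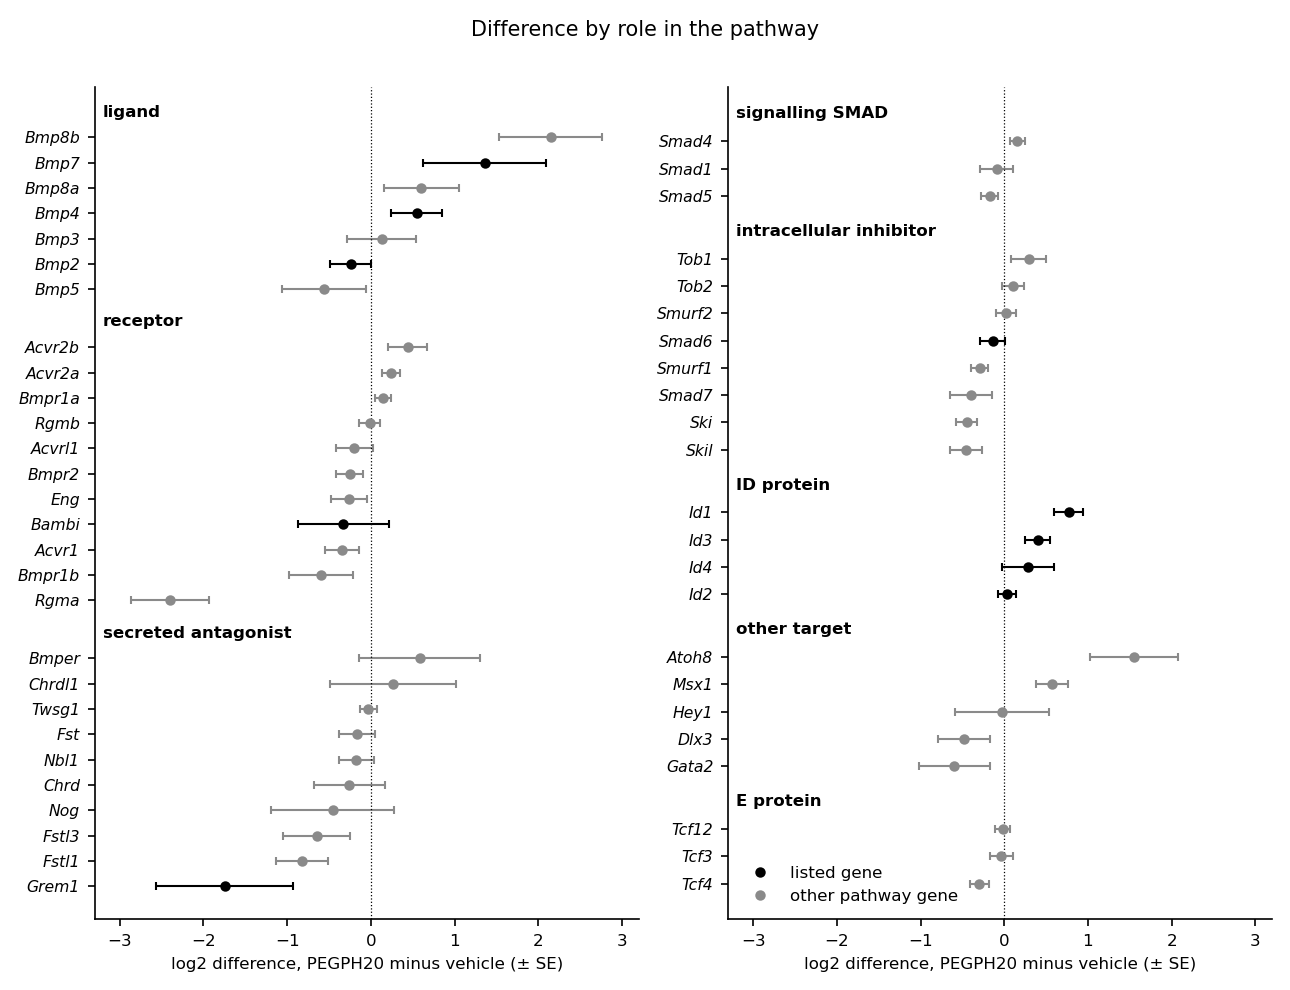
Log2 difference (x axis, PEGPH20 minus vehicle, points with ± SE) of the 10 listed genes (black) and 41 of the 42 tested pathway genes (grey), grouped by role; Bambi stands with the receptors. Within the ID proteins all 4 points are above 0, between 0.03 and 0.77, although Id2 is below 0 in edgeR and DESeq2, and within the secreted antagonists drawn 8 of 10 are below 0.

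The genes whose pattern over the 7 libraries was most like that of Id1 were Pdik1l, Ppp2r2d and Rbm4, with a Pearson r of 0.978, 0.977 and 0.972 in log2(value + 1) among 10319 genes whose mean value reached 20. All points share their library's size factor, and with 7 libraries in 2 groups such values describe the order of the libraries only. Pdik1l, which encodes a kinase, had 219, 192, 190 and 190 in the PEGPH20 libraries and 171, 156 and 166 in the vehicle libraries. Ppp2r2d, a regulatory subunit of protein phosphatase 2A, had 254, 237, 235 and 210 in PEGPH20 and 196, 179 and 199 in vehicle, and shares exon bases with Mapk1ip1 on the other strand. Rbm4, an RNA-binding protein gene, had 142, 120, 118 and 106 in PEGPH20 and 84.6, 87.3 and 92.8 in vehicle. It is uncertain, since exons of Gm21992 cover the same strand. Id3 had an r of 0.884 with Id1 and ranked 95. Among the other listed genes that reached this mean, r with Id1 was 0.51 for Bmp4, 0.45 for Id2, 0.18 for Id4, 0.01 for Bmp2, -0.06 for Smad6 and -0.39 for Grem1.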

How the data were processed

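RNA of 7 tumours was sequenced as 3′ mRNA libraries (Lexogen QuantSeq 3′ FWD with optional molecular identifiers, 200 ng total RNA, single-end 75 nt), per the labels' protocols. The submitters' processing notes name the build GRCm38. The sources used here do not give the aligner, counter, annotation, normalization tool, use of strand or use of molecular identifiers. The signal deposited by the authors is, from its values, a library's read counts over 1 size factor: in every column 100% of values were whole multiples of the smallest (tolerance 0.01). Whole reads were recovered from these multiples, and edgeR's quasi-likelihood test on them called 0 of 13079 genes.

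The main test was limma 3.58.1 (R 4.3.3) on log2(value + 1) of the deposited signal, with an intensity trend and treatment as the only term, for the 17132 genes whose mean value reached 1. P-values were adjusted by Benjamini-Hochberg over all of them. The pseudocount of 1 reduces the log2 differences of genes with low values, but these are not lower bounds. Bmp8b was 2.15 in limma and 1.71 in edgeR and DESeq2, and Bmp7 was 1.36 in limma and 1.22 in DESeq2. Each gene's p-value rests on the variation among these tumours, with the gene's own variance drawn toward the trend over all tested genes. Libraries of a group were distinct, differing beyond sampling noise (chi-square per degree of freedom 6.59 to 16.3). Alternatives were edgeR 4.0.16, DESeq2 1.42.0, voom, other scalings, filters, pseudocount and threshold, fibroblast or endothelial level as a covariate, and each library left out. Leaving out 3 muscle-rich libraries was added after seeing the data.

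The members, lists and rules were chosen with earlier results of these data known. Named are all 10 listed genes, every other tested pathway gene with an unadjusted p under 0.05, the gene with the highest mean in each role, and the 3 genes nearest to Id1 in Pearson r. Other pathway genes (Bmpr1a, Smad1, Smad5, Smad7, Nog, Bmp8a, Tcf3, Tcf12 and those not tested) were named after their values were seen. Coordinates and exon overlaps come from GENCODE M21, which uses GRCm38. Symbols were found for 47224 of 47643 identifiers. Protein sequences were not used here. The values of 1 pathway gene are not reported here, although the counts include it.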

Additional observations from a re-analysis of the deposited data

Results flagged for a closer look

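Acvr2a, the activin and BMP type II receptor, had 1 PEGPH20 library apart from the others, which lay close together. Replicate 37 was at 138 normalised reads, while the other PEGPH20 libraries were at 123 to 124. The gap was 0.924 of the group's whole range, above Dixon's 95% critical value for 4 samples. The gap was looked for in all 22 named genes, and chance alone flags about 1 in 20 groups. The values rest on 189 reads in replicate 37 and 150, 179 and 223 in replicates 11, 12 and 19. Counting error was not taken into account.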

How the results depend on the processing

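Of the 22 named genes, 17 kept the direction of their difference in all alternatives in which they could be tested, out of 19. Id2 was -0.0115 in edgeR, -0.0109 in DESeq2, -0.0492 with voom, -0.0689 without the 3 muscle-rich libraries and -0.0712 to 0.12 with 1 library left out. Id4 was -0.19 with the pan-fibroblast covariate, -0.0194 with the endothelial covariate and -0.0434 to 0.48 with 1 library left out. Bmp2 was -0.37 to 0.0178 and Bambi -0.74 to 0.0642 with 1 library left out. Bambi was 0.47 and Bmpr2 0.13 with the pan-fibroblast covariate, and Bambi was 0.0131 with the endothelial covariate. The cause was not tested.

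The count of genes past an adjusted p of 0.05 was 64 in DESeq2 and 0 to 2 with 1 library left out, with 2 without vehicle replicate 16. The 2083 genes with an unadjusted p under 0.05 became 1203 with the pan-fibroblast covariate, 879 with the endothelial covariate, 509 at a p under 0.01 and 1321 to 3456 with 1 library left out (1321 without vehicle replicate 33, 1381 and 1385 without PEGPH20 replicates 11 and 37, 3456 without vehicle replicate 16). The 2 listed genes became 1 at a p under 0.01 and 1 to 3 with 1 library left out (1 without PEGPH20 replicate 11 or 19). The 10 pathway genes became 5 and 3 with the fibroblast and endothelial covariates and 4 to 15 with 1 library left out. Without the 3 muscle-rich libraries 1797 genes had an unadjusted p under 0.05, with 3 listed genes among them: Id1, Id3 and Grem1.

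Scaling moved the median log2 difference of all genes between -0.002 (DESeq2 factors) and 0.06 (library totals), against 0.03 as deposited. Of the genes with an unadjusted p under 0.05, 62.3% were higher as deposited, 50.5% with DESeq2 factors, 54.5% with TMM and 72.3% with library totals. Bmp7 and Bambi have no value at a mean of at least 10, nor Bmp7 under the edgeR filter. No paired analysis was possible because the replicate numbers of the groups share no number. Depth limits Bmp7, Bambi, Rgma and Atoh8, with at most 29 reads in any library.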
